A study of Homo sapiens with 6 samples.

Results

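The genes of cytokines, chemokines and their receptors were examined in 786-O cells with and without knockdown of YB1. Members were taken by symbol from the deposited expression table: CC, CXC and CX3C chemokine ligands, CC and CXC chemokine receptors, interleukins with their antagonists and receptors, the numbered members of the tumor necrosis factor (TNF) ligand (TNFSF) and receptor (TNFRSF) superfamilies, and the colony-stimulating factors (CSF) with their receptors. IL6, IL6R, IL11 and IL11RA were left out by the rule. Of the 20030 genes in the table, 170 were members. 786-O is an established human cell line of clear cell renal cell carcinoma (ccRCC) origin, and the labels give passages 16 to 18 for all libraries. There were 3 vector libraries, from cells carrying a scrambled shRNA, and 3 shYB1 libraries, from cells carrying an shRNA against YB1. Both kinds of cells had been infected with lentivirus and selected with puromycin before total RNA was taken. The series text speaks of several independent shRNAs whereas the labels give a single shYB1 group. Whether the shYB1 libraries carry the same hairpin or different ones is therefore not known. An effect of YB1 loss and an effect of a hairpin itself cannot be told apart. The labels do not say whether libraries of a group came from separate infections or cultures, so p values measure only the spread between these libraries, which may be technical.

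Chemokines are small secreted proteins that bind G protein-coupled receptors and attract leukocytes, and the CXC ligands with a glutamate-leucine-arginine motif, such as CXCL8 and CXCL1, attract neutrophils through CXCR1 and CXCR2. Many interleukins and colony-stimulating factors act through cell surface receptor chains that signal by Janus kinases. The interleukin-1 family signals by MyD88 and NF-κB, and the receptor of CSF1 is itself a tyrosine kinase. TNF superfamily ligands bind trimeric receptors, many of which recruit NF-κB-activating adaptors, carry a death domain or do both. Many of these genes are induced by NF-κB, and renal carcinoma cells are known to secrete neutrophil-attracting chemokines.

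The targeted mRNA was lower as labelled: YBX1 had 366, 373 and 378 FPKM with vector and 167, 166 and 173 FPKM with shYB1. FPKM scales the fragments of a gene by transcript length and by the mapped fragments of the library, so levels can be compared between genes. Fragment counts cannot be read from FPKM and the sequencing depth is unknown, but the spacing of the lowest values put the depth of the libraries between 0.982 and 1.10 times that of shYB1 replicate 1. All 9 markers of the renal carcinoma line examined, including PAX8 at 77.1 FPKM with vector and 77.5 FPKM with shYB1, were above 1 FPKM. Of 8 leukocyte markers, CD3E and MS4A1 were at 0 in all libraries, and the 2 at or above 1 FPKM were CD68 and LYZ. The summed FPKM of the leukocyte list was 26.1 to 28.3 in vector and 22.7 to 24.3 in shYB1 libraries, of which CD68, a lysosomal protein, made up a mean of 25.0 and 22.4 FPKM. Its part in the results below was not tested. In bulk RNA, fewer cells expressing a gene and less RNA of it per cell cannot be told apart.

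786-O cells expressed a restricted set of these genes at high levels. Of the 170 members, 64 were at 0 in all 6 libraries, 62 were above 0 with a mean under 1 FPKM, and 44 (25.9%) had a mean of at least 1 FPKM and were tested. The share tested was 52.1% among all genes in the deposited file. A mean of at least 10 FPKM was reached by 14 members and of at least 100 FPKM by 4, which were TNFRSF12A, TNFRSF1A, CXCL8 and CSF1. The TNFRSF receptors were the class with the largest share tested, with 13 of 21 genes, whereas 22 of the 41 chemokine ligands and 7 of the 16 chemokine receptors were at 0 throughout. Members nearest the limit were IL1B and IL18R1 just above it and CCR10, with a mean of 0.921 FPKM, just below it.

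**Figure D1:**
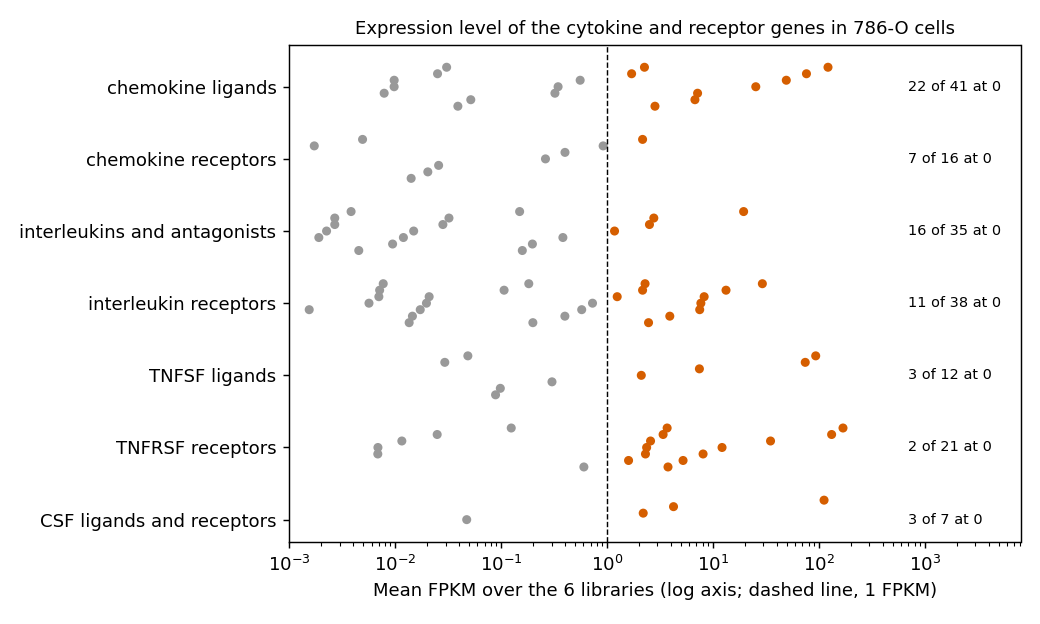
Mean FPKM over the 6 libraries (log axis) of each member above 0, by role, with the number at 0 in all libraries at the right. Orange points lie at or above the 1 FPKM limit for testing (dashed line), and the vertical offset within a row only separates points. The 44 tested members include 13 TNFRSF receptors and 9 chemokine ligands.

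In shYB1 cells 13 of the 44 tested members were lower and 5 were higher than in vector cells at an adjusted p under 0.05. Lower members made up 29.5% of those tested, against 6.93% of all genes tested, and higher members made up 11.4%, against 18.7% of all genes tested. The lower members were CXCL8, CXCL2, CXCL1, CXCL5, CXCL3, CCL2, IL1B, IL10RB, TNFSF10, TNFRSF1A, TNFRSF10D, TNFRSF11B and CSF1, and the higher members were CCL20, TNFRSF12A, TNFRSF21, TNFRSF19 and CSF1R. After rescaling of the libraries by median-of-ratios size factors, 17 members were lower and 4 higher, against 12.2% and 11.2% of all genes. Without rescaling the calls over all genes were 723 lower and 1956 higher, and with it 1273 lower and 1171 higher.

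The changes were mostly moderate. Mean FPKM changed by −9.86% (TNFRSF1A) to −54.1% (CCL2) among the lower members and rose by 24.4% to 51.0% among the higher members. The criteria of the study's methods, an unadjusted p under 0.05 with a fold change of at least 2, were met by 2 members, CCL2 and IL1B, both lower, against 0.182% of all genes tested for lower genes. No member met them toward higher expression in limma (0.0383% of all genes), and the largest fold of FPKM + 0.1 was 1.49. The median log2 fold change of the 44 members, shYB1 over vector, was −0.078, and that of all 10439 genes tested was 0.055. The fold change was below 0 in 28 of the 44 members (63.6%) and in 35.9% of all genes tested. The groups did not overlap in 17 members with lower and 7 with higher values in shYB1, or 38.6% and 15.9%, against 12.5% and 30.1% of all genes tested. For a single gene the two-sided exact permutation test over 3 and 3 libraries cannot give a p under 0.1.

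**Figure D2:**
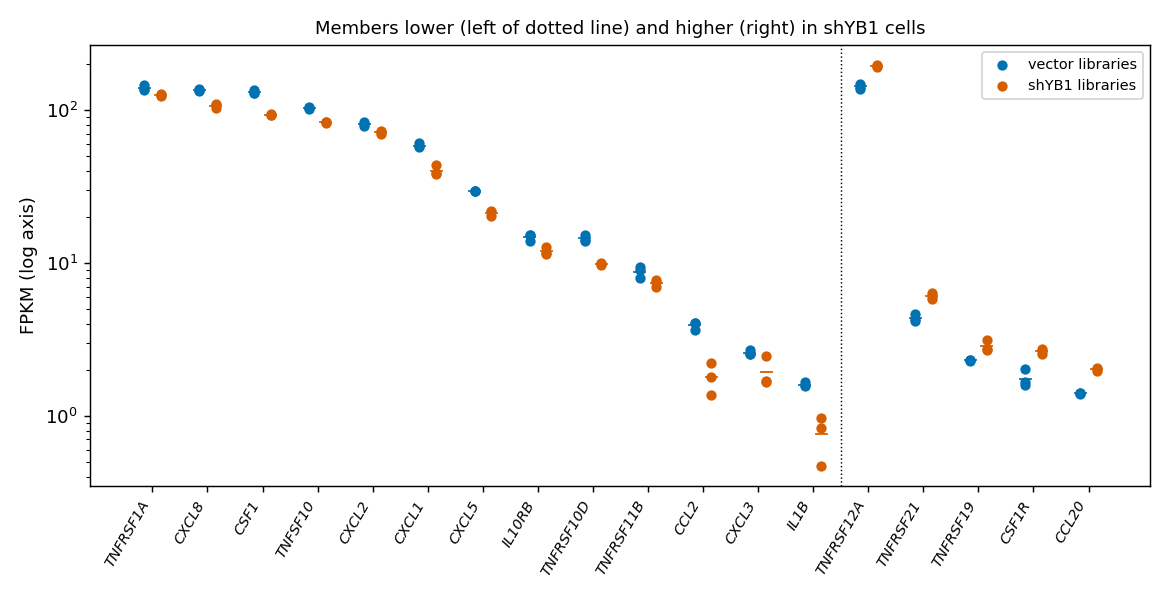
FPKM (log axis) of each of the 18 members with an adjusted p under 0.05, lower in shYB1 cells to the left of the dotted line and higher to the right. Points are single libraries (blue, vector; orange, shYB1) and short lines are group means. The 3 shYB1 libraries lie on one side of the 3 vector libraries in all 18 genes.

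The neutrophil-attracting CXC ligands fell together. CXCL8, the chemokine also called interleukin-8, had 136, 138 and 134 FPKM with vector and 108, 110 and 103 FPKM with shYB1, for a log2 fold change of −0.35 (standard error, SE, 0.035, adjusted p = 0.000104). CXCL1 had 60.6, 57.9 and 57.1 FPKM against 38.5, 38.2 and 43.6 FPKM, for a log2 fold change of −0.55 (SE 0.052, adjusted p = 8.81e-05). CXCL5 had 29.7, 29.4 and 29.6 FPKM against 21.8, 21.6 and 20.4 FPKM, for a log2 fold change of −0.47 (SE 0.039, adjusted p = 3.09e-05). In these 3 genes the gap between the groups was wider than the range within either group. CXCL2, at 81.3, 78.9 and 84.1 FPKM with vector and 71.7, 72.7 and 69.4 FPKM with shYB1, changed less, with a log2 fold change of −0.19 (95% confidence interval −0.27 to −0.11, adjusted p = 0.00369). CXCL3 was the least expressed of them, at 2.54, 2.68 and 2.54 FPKM against 1.67, 1.69 and 2.45 FPKM, and shYB1 replicate 3 lay close to the vector libraries. Its log2 fold change of −0.42 had a standard error of 0.13 and an adjusted p of 0.0433. The adjusted p was 0.0772 to 0.137 when any library but shYB1 replicate 3 was left out, and 0.00223 without that one. CXCL1, CXCL2 and CXCL3 are close relatives and shared 4.81%, 12.5% and 6.01% of the 50-base words of their transcripts with other genes, mainly each other, so part of their signal could have been assigned to the wrong copy.

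These 5 genes lie in a single stretch of chromosome 4 of GRCh38, from the start of CXCL8 at 73740506 to the end of CXCL2 at 74099293. CXCL6, which lies between CXCL8 and CXCL1, was at 0 in all 6 libraries. Their promoters were chosen for display because they hold the letters GGAATTTCC. The presence of these letters in every sequence shown therefore follows from the choice and is not a result. Each sequence is the 150 bases before the RefSeq start site (build GRCh38.p14), written on the strand of the gene, with the letters GGAATTTCC, a form of the NF-κB binding site, in capitals.
CXCL8, chr4:73740419-73740568, plus strand: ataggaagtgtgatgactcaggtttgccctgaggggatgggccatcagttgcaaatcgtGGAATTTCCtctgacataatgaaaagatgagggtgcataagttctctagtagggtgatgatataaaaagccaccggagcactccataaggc
CXCL1, chr4:73869243-73869392, plus strand: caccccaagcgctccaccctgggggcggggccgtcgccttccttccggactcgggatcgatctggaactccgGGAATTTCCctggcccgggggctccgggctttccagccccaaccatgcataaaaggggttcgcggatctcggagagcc
CXCL5, chr4:73998678-73998827, minus strand: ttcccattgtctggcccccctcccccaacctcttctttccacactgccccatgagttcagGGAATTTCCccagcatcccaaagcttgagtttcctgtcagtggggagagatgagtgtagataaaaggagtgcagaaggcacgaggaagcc
CXCL3, chr4:74038690-74038839, minus strand: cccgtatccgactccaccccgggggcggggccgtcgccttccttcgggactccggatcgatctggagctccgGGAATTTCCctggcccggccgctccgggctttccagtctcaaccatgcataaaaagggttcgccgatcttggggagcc
CXCL2, chr4:74099196-74099345, minus strand: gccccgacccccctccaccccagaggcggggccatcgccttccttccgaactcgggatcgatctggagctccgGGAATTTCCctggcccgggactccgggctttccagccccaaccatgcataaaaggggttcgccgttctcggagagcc

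The 9 letters began 91 bases before the start in CXCL8, 90 in CXCL5, 78 in CXCL1 and CXCL3 and 77 in CXCL2, on the strand of the gene in each. Searched on both strands of the 250 bases before the start, they were found in 5 of the 9 lower members with a RefSeq window. Of the members with a window, they were found in 0 of the 4 higher ones and in TNFRSF9 among the 18 not called. The share over 27305 genes was 0.502%. The 5 lower members are neighbors on chromosome 4, and CXCL1, CXCL2 and CXCL3 are close relatives, so they are not 5 independent cases. The letters were also found in CXCL6, CXCL10, CXCL11 and IL18RAP, which were under 1 FPKM. The broader kappa-B consensus, which overlaps these letters in all 5 CXC genes except CXCL8, was found in 4 of the 9 lower, 2 of the 4 higher and 7 of the 18 members not called, and in 11.8% of all genes. CCAAT, the core of the Y-box for which YB1 was named, was found on either strand in 2 of the 9 lower members (TNFRSF1A and IL1B), 1 of the 4 higher members (CCL20) and 37.0% of all genes. The 9-letter form was chosen after the sequences had been read, and a match of letters is a description of the sequence and not a measured site.

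CCL2 and CCL20 moved in opposite directions. CCL2, which attracts monocytes through CCR2, had 4.03, 4.04 and 3.62 FPKM with vector and 1.80, 2.21 and 1.36 FPKM with shYB1, and the lowest vector library was above the highest shYB1 library. Its log2 fold change of −1.11 (SE 0.15, adjusted p = 0.000928) was the lowest of any member and ranked 15 from the bottom among the 10439 genes tested. CCL20, which attracts lymphocytes and dendritic cells through CCR6, had 1.41, 1.41 and 1.39 FPKM against 2.03, 2.06 and 1.95 FPKM, for a log2 fold change of 0.49 (SE 0.082, adjusted p = 0.00211). Its promoter was chosen for display because it holds a match to the kappa-B consensus in the 150 bases before the RefSeq start. TNFRSF19, the other higher member with a match, had it 171 bases before the start and is not shown. The sequence is again these 150 bases, with the match, on the other strand, in capitals.
CCL20, chr2:227813692-227813841, plus strand: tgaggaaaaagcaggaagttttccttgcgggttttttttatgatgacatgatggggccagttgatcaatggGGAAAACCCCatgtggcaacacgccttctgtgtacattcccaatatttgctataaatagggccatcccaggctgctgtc

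The remaining tested chemokine ligands did not pass the test. CCL28, a mucosal chemokine, had a mean of 7.15 ± 0.623 FPKM with vector and 7.20 ± 0.290 FPKM with shYB1 (SD, n = 3 each), with a log2 fold change of 0.01 (95% confidence interval −0.14 to 0.17). CX3CL1, the membrane-anchored chemokine fractalkine, had 6.50 ± 0.277 FPKM with vector and 7.04 ± 0.259 FPKM with shYB1 (SD, n = 3 each), without overlap but with an adjusted p of 0.169 in limma. Summed over the 41 chemokine ligands, the level was 328.4 ± 1.36 FPKM with vector and 261.4 ± 2.45 FPKM with shYB1 (SD, n = 3 each), and most of it came from CXCL8, CXCL2, CXCL1 and CXCL5.

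Receptors for these ligands were scarce. CXCR1 and CXCR2, the receptors of the CXC ligands above, were at 0 in all 6 libraries. CCR2, the receptor of CCL2, had a mean of 0.00494 FPKM, and CCR6, the receptor of CCL20, had 0.263 FPKM with overlapping groups. CCR10, a receptor of CCL28, had 1.17, 1.46 and 0.712 FPKM with vector and 0.922, 0.833 and 0.433 FPKM with shYB1, CCR1 averaged 0.402 FPKM and CCR7 0.0258 FPKM. The only member of the chemokine receptors that was tested was CXCR4, the CXCL12 receptor, with 2.32, 2.62 and 2.28 FPKM with vector and 1.88, 2.28 and 1.62 FPKM with shYB1. The groups did not overlap but came within rounding of each other at 2.28 FPKM, and the log2 fold change of −0.32 (SE 0.12) had an adjusted p of 0.0740. CXCR4 passed the test after median-of-ratios scaling (log2 fold change −0.37, adjusted p = 0.0476) and with the replicate number as a block (adjusted p = 0.0339), within a range of 0.0225 to 0.223 when a library was left out.

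**Figure D3:**
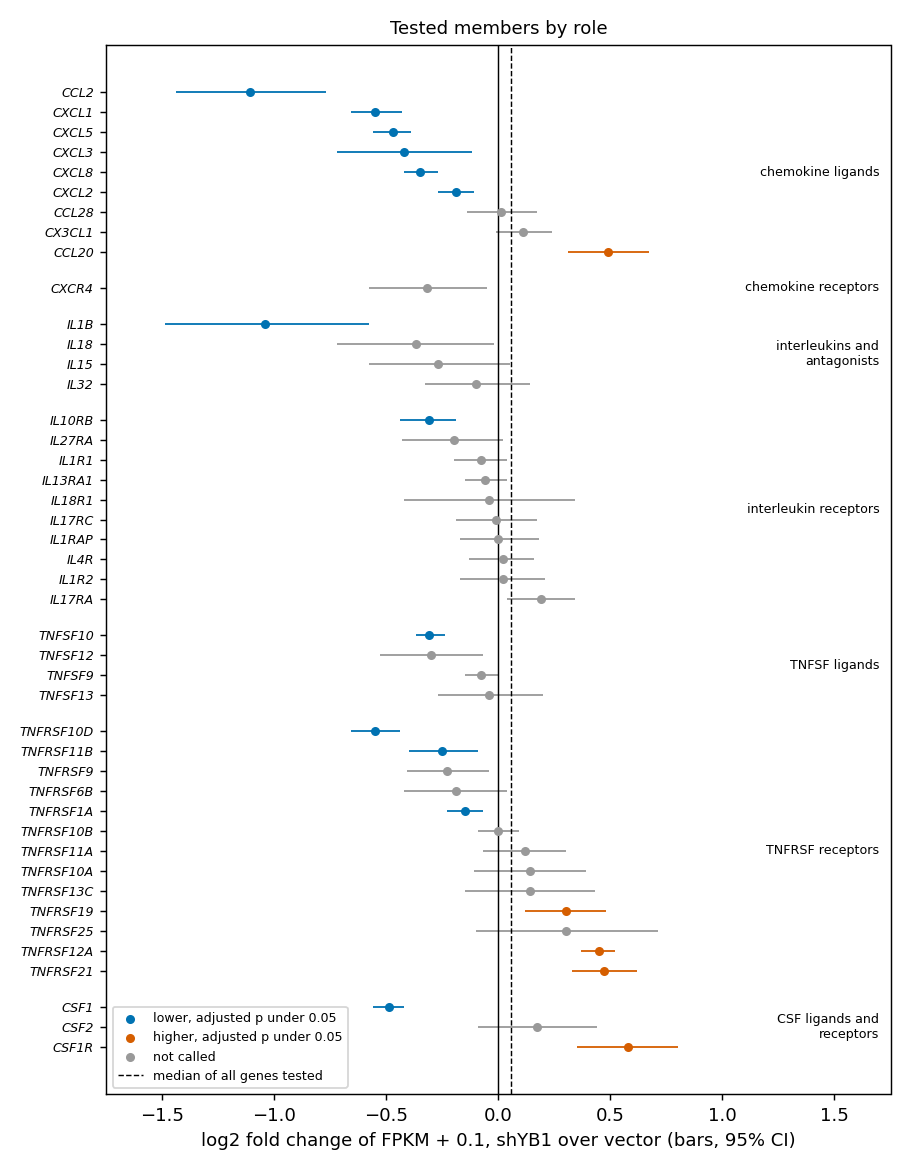
Log2 fold change of FPKM + 0.1, shYB1 over vector, of the 44 tested members by role, with 95% confidence intervals from limma (blue, lower; orange, higher; gray, not called) and the median of all genes tested, 0.055, as a dashed line. CCL2 and IL1B lie farthest to the left. Of the 9 chemokine ligands 6 are blue and 1 is orange, against 6.93% and 18.7% of all genes tested.

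Of the interleukins and antagonists, 4 of 35 were tested. Of these, 1 was lower and 0 were higher, against 6.93% and 18.7% of all genes tested. IL1B, the proinflammatory cytokine interleukin-1β, had 1.66, 1.56 and 1.58 FPKM with vector and 0.960, 0.471 and 0.831 FPKM with shYB1, and its fold change ranked 20 from the bottom of the genes tested (log2 fold change −1.04, adjusted p = 0.00592). With a pseudocount of 1 in place of 0.1 its log2 fold change was −0.58, and neither IL1B nor CCL2 then met the fold change limit of 2. IL1A, the other interleukin-1 ligand, was above 0 in a single vector library, and the antagonist IL1RN averaged 0.0323 FPKM. IL32, the most expressed interleukin, had 20.2 ± 2.78 FPKM with vector and 18.8 ± 1.84 FPKM with shYB1 (SD, n = 3 each), a difference within the spread of the libraries. IL18 had 3.48, 2.57 and 3.36 FPKM against 2.09, 3.01 and 2.14 FPKM, with 1 shYB1 library above 1 vector library (log2 fold change −0.37, adjusted p = 0.108). IL15, which sustains natural killer and memory T cells, had overlapping groups (log2 fold change −0.27, 95% confidence interval −0.58 to 0.05). IL7, a lymphocyte growth factor, averaged 0.384 FPKM and was not tested.

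Interleukin receptor chains mostly did not pass the test. Of 10 tested, 1 was lower and 0 were higher, against 6.93% and 18.7% of all genes tested. The lower one, IL10RB, had 14.0, 15.2 and 15.2 FPKM with vector and 11.6, 12.7 and 11.4 FPKM with shYB1 (log2 fold change −0.31, SE 0.055, adjusted p = 0.00287). IL10RB is the chain shared by the receptors of interleukin-10, interleukin-22 and type III interferons, and its partner IL10RA was at 0 in all libraries. IL10RB shared 36.3% of its 50-base words with an overlapping gene model, AP000295.1, so its value is uncertain. The chains that bind interleukin-1 had values of 8.50 ± 0.473 and 8.04 ± 0.102 FPKM for IL1R1, 2.28 ± 0.145 and 2.31 ± 0.169 FPKM for the decoy receptor IL1R2 and 2.47 ± 0.180 and 2.47 ± 0.0633 FPKM for the accessory chain IL1RAP (vector and shYB1, SD, n = 3 each). The 95% confidence intervals of their log2 fold changes were −0.20 to 0.04, −0.17 to 0.21 and −0.17 to 0.18, which exclude a change of the size measured for IL1B. IL13RA1 and IL4R, which together form the type II interleukin-4 receptor, had log2 fold changes of −0.06 (95% confidence interval −0.15 to 0.04) and 0.02 (−0.13 to 0.16). The interleukin-17 receptor chain IL17RC had a log2 fold change of −0.01 (adjusted p = 0.918), and IL17RA, its partner, one of 0.19 with groups that did not overlap (adjusted p = 0.0673).

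Among TNF superfamily ligands, TNFSF10 (TRAIL), which induces apoptosis through death receptors, had 101, 103 and 105 FPKM with vector and 83.9, 84.0 and 82.8 FPKM with shYB1. The fall of 0.31 on the log2 scale (SE 0.031, adjusted p = 0.000107) was larger than the spread within either group. TNFSF9, the ligand of the costimulatory receptor TNFRSF9, had 75.1, 75.2 and 79.0 FPKM against 72.1, 73.2 and 71.7 FPKM, without overlap but with an adjusted p of 0.109. After median-of-ratios scaling TNFSF9 had a log2 fold change of −0.14 and an adjusted p of 0.00952. Its receptor TNFRSF9 had 3.66, 4.04 and 3.30 FPKM with vector and 3.06, 3.28 and 3 FPKM with shYB1 (log2 fold change −0.23, adjusted p = 0.0707, and 0.0383 after median-of-ratios scaling). TNFSF12 (TWEAK) had 8.41, 8.56 and 7.73 FPKM against 7.37, 5.53 and 7.19 FPKM (log2 fold change −0.30, adjusted p = 0.0558, and 0.0350 after median-of-ratios scaling). TNFSF13 (APRIL) had 2.15 ± 0.317 and 2.08 ± 0.121 FPKM (SD, n = 3 each). TNFSF12 and TNFSF13 shared 26.9% and 48.5% of their words with the readthrough gene TNFSF12-TNFSF13, whose own values jumped between 6.74e-05 and 0.714 FPKM within the groups, so the division of reads among these 3 genes is uncertain.

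The TRAIL receptors did not follow their ligand as a set. TNFRSF10D (DcR2), a decoy receptor with a truncated death domain, had 14.0, 15.3 and 14.2 FPKM with vector and 9.90, 10 and 9.66 FPKM with shYB1, for a log2 fold change of −0.55 (SE 0.049, adjusted p = 5.35e-05). The death receptor TNFRSF10B (DR5) had 36.2, 35.1 and 33.8 FPKM against 33.5, 36.0 and 35.4 FPKM, with a 95% confidence interval of the log2 fold change of −0.09 to 0.09. The other death receptor, TNFRSF10A (DR4), had 2.25 ± 0.331 and 2.48 ± 0.241 FPKM (SD, n = 3 each), with an interval of −0.11 to 0.39, and the decoy TNFRSF10C averaged 0.125 FPKM. The interval of TNFRSF10D, −0.66 to −0.44, lay below those of both death receptors. TNFRSF11B (osteoprotegerin), a soluble decoy for TNFSF10 and TNFSF11, had 7.95, 9.02 and 9.35 FPKM against 7.74, 7.48 and 6.92 FPKM. Its fall (log2 fold change −0.25, SE 0.070, adjusted p = 0.0272) did not hold in every omission of a library, with an adjusted p of 0.0805 without vector replicate 2, 0.0798 without vector replicate 3, 0.0592 without shYB1 replicate 2 and 0.0868 without shYB1 replicate 3.

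The 3 higher TNFRSF genes were receptors outside this group. Of the 13 TNFRSF genes tested, 3 were lower and 3 higher, against 6.93% and 18.7% of all genes tested. TNFRSF12A (Fn14), the receptor of TWEAK and the most expressed member, had 141, 138 and 149 FPKM with vector and 192, 194 and 198 FPKM with shYB1, for a log2 fold change of 0.45 (SE 0.035, adjusted p = 2.39e-05). Exons of TNFRSF12A overlap CLDN6 on the other strand, and whether the library preparation kept the strand is not given in the sources used here. TNFRSF21 (DR6), a death domain receptor, had 4.15, 4.61 and 4.32 FPKM against 6.37, 5.82 and 6.09 FPKM, for a log2 fold change of 0.47 (SE 0.064, adjusted p = 0.000640). TNFRSF19 (TROY) had 2.30 ± 0.0228 and 2.86 ± 0.243 FPKM (SD, n = 3 each, adjusted p = 0.0212), and after median-of-ratios scaling its adjusted p was 0.0507. Its adjusted p was 0.0542 without vector replicate 1 and 0.0896 without shYB1 replicate 2.

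TNFRSF1A, the main receptor of TNF, was the second most expressed member, with 135, 138 and 145 FPKM with vector and 127, 126 and 124 FPKM with shYB1. The difference was small but larger than the spread between replicates (log2 fold change −0.15, SE 0.035, adjusted p = 0.0115). Summed over the 21 TNFRSF genes the level was 365.1 ± 8.94 FPKM with vector and 399.5 ± 2.04 FPKM with shYB1 (SD, n = 3 each), most of it from TNFRSF12A and TNFRSF1A. TNFRSF6B, a soluble decoy receptor, had log2 fold change −0.19 with overlapping groups, and all of its words (100%) were shared with the readthrough gene RTEL1-TNFRSF6B.

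CSF1 and its receptor moved apart. CSF1, the growth factor of macrophages, had 130, 129 and 135 FPKM with vector and 92.9, 93.0 and 94.3 FPKM with shYB1, for a log2 fold change of −0.49 (SE 0.031) with the lowest adjusted p of any member (5.84e-06). CSF1R, the tyrosine kinase receptor of CSF1, had 2.02, 1.66 and 1.58 FPKM against 2.65, 2.54 and 2.74 FPKM, for a log2 fold change of 0.58 (SE 0.099, adjusted p = 0.00251), the highest of any member and rank 68 from the top among the genes tested. IL34, the other ligand of CSF1R, averaged 0.0283 FPKM with overlapping groups. CSF2, the granulocyte-macrophage factor, had 4.52, 4.34 and 3.17 FPKM against 4.41, 4.47 and 4.56 FPKM (log2 fold change 0.17, 95% confidence interval −0.09 to 0.44), and the 2 chains of its receptor, CSF2RA and CSF2RB, were at 0 throughout. CSF3R, the granulocyte factor receptor, had 0.0614, 0.0753 and 0.0825 FPKM with vector and 0.0111, 0.0434 and 0.0114 FPKM with shYB1, under the limit for testing.

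The 62 members above 0 with a mean under 1 FPKM were not tested in the main fit. Of these, 3 had shYB1 values below all vector values and 6 had them above, or 4.84% and 9.68%, close to the 5.87% and 8.85% of all genes in that range. The non-overlapping members that averaged 0.5 FPKM or more were IL15RA, the interleukin-15 receptor chain, with 0.721, 0.550 and 0.623 FPKM with vector and 0.887, 0.821 and 0.787 FPKM with shYB1, and IL17RD, with 0.513, 0.514 and 0.489 FPKM against 0.635, 0.607 and 0.713 FPKM. CXCL10, the interferon-induced chemokine, is named after its values were seen: it had 0.0735, 0.0389 and 0.123 FPKM with vector and was listed at 0 in the 3 shYB1 libraries. TNFRSF18 and CCR3 went the other way, at 0 in the vector libraries. With shYB1 they had 0.0231, 0.0227 and 0.0237 FPKM and 0.0143, 0.0273 and 0.0433 FPKM. All of these values lie near the floor.

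Other genes of these pathways, which are not members, were taken from 5 lists chosen with earlier results of these data known, so their counts are a description and not independent evidence. Of the 54 genes tested in them, 16 were lower (29.6%, against 6.93% of all genes tested) and 2 higher (3.70%, against 18.7%). After median-of-ratios scaling 17 were lower (31.5%, against 12.2% of all genes tested) and 2 higher (3.70%, against 11.2%). In the list named feedback inhibitors, 6 of 9 genes were lower and the median log2 fold change was −0.214, beside 6.93% and 0.055 for all genes tested. ZC3H12A (Regnase-1), a nuclease that degrades cytokine mRNAs, had 36.1, 36.3 and 34.8 FPKM with vector and 21.3, 22.9 and 20.6 FPKM with shYB1, for a log2 fold change of −0.72 (adjusted p = 5.31e-06). NFKBIA, the inhibitor IκBα, had 89.6, 91.4 and 89.9 FPKM against 63.0, 65.4 and 61.6 FPKM, for a log2 fold change of −0.51 (adjusted p = 6.27e-06). The other 4 lower genes of this list were NFKBIE, NFKBIZ, TNIP1 and ZFP36, with log2 fold changes of −0.27, −0.25, −0.19 and −0.21. The name of the list does not mean that each of its genes, NFKBIZ among them, acts as an inhibitor in these cells, which was not tested.

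In the list of other TNF superfamily members and adaptors, 5 of 16 tested genes were lower, with a median log2 fold change of −0.024, beside the same 6.93% and 0.055 for all genes tested. TNF itself had 3.32, 5.55 and 4.68 FPKM with vector and 2.59, 2.69 and 2.93 FPKM with shYB1, for a log2 fold change of −0.67 (SE 0.16, adjusted p = 0.0149). The call of TNF was lost without vector replicate 3, shYB1 replicate 1 or shYB1 replicate 2, with an adjusted p of up to 0.0587. BIRC3, an adaptor-bound ubiquitin ligase, and TNFAIP3 (A20), a deubiquitinase that restrains NF-κB, had log2 fold changes of −1.09 and −0.58, and LTBR and FAS were also lower, at −0.29 and −0.22. The adjusted p of FAS, 0.0432, was 0.0652 to 0.114 when any library was left out. In the Janus kinase pathway 5 of 18 tested genes were lower, with a median log2 fold change of −0.014, again beside 6.93% and 0.055. SOCS3 and SOCS1, feedback inhibitors of cytokine receptors, had log2 fold changes of −0.59 (adjusted p = 4.36e-06) and −0.65 (adjusted p = 0.0131, and 0.0539 for SOCS1 without shYB1 replicate 1), and STAT2 and STAT3 had log2 fold changes of −0.22 and −0.25. Of the 9 tested interleukin-1 receptor adaptors 0 were lower and 1 was higher, against 6.93% and 18.7% of all genes tested. IRAK2 was lower without overlap (log2 fold change −0.18, adjusted p = 0.0516) and passed the test after median-of-ratios scaling (−0.24, adjusted p = 0.0173). The 1 higher gene was the kinase IRAK1, at 73.6, 71.6 and 78.8 FPKM with vector and 95.2, 97.1 and 103 FPKM with shYB1 (log2 fold change 0.40, adjusted p = 0.000188). ACKR3, an atypical receptor that takes up CXCL12, was higher with the same log2 fold change of 0.40 (adjusted p = 0.00114), whereas CXCL12 was at 0 in all 6 libraries.

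**Figure D4:**
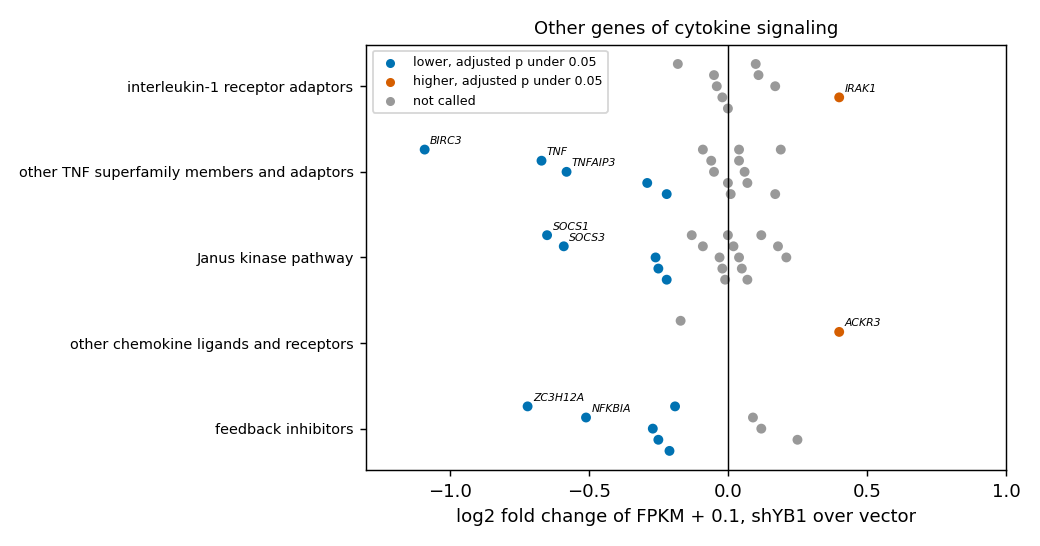
Log2 fold change of FPKM + 0.1, shYB1 over vector, of the tested genes in 5 lists of cytokine signaling genes that are not members (blue, lower; orange, higher; gray, not called), with names for called genes of at least 0.4 in size. The vertical offset only separates points. The blue points extend to −1.09 (BIRC3), and the 2 orange points are IRAK1 and ACKR3.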

How the data were processed

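RNA of 3 vector and 3 shYB1 libraries of 786-O cells was sequenced. The authors deposited FPKM per gene and library. The submitters' processing notes name Trimmomatic, HISAT2, Cufflinks, HTSeq and DESeq and the build GRCh38, without roles or versions. All 6 value columns were used and 0 were left out. Depth is unknown, so no interval or floor that needs counts was computed.

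Members were taken by symbol, and the members and lists were chosen with earlier results of these data known. Log2(FPKM + 0.1) of every gene averaging 1 FPKM or more (10439 genes) was fitted with limma 3.58.1 in R 4.3.3 (lmFit, eBayes with trend and robust prior), two-sided, without a replicate block, and p values were adjusted by Benjamini-Hochberg across these genes. This scale understates changes of low genes. Adjusted p under 0.05 was called lower or higher, and the study's criteria (unadjusted p under 0.05, fold change of 2) were a second rule. The fit was tested on simulated data with known changes. Named genes were called members, the 5 highest-level members of each role, their partners, and called pathway genes with an absolute log2 fold change of at least 0.5. Pathway genes named below that, ACKR3, IRAK1, IRAK2 and other lower genes of the lists, were added after their values were seen. The same holds for IL1A, CXCL10, TNFRSF18, CCR3 and other untested partners. A median-of-ratios scaling of the role and pathway counts was also added then.

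The alternatives tried were a pseudocount of 0.01 or 1, a filter of 5 FPKM or none, median-of-ratios, common-total and quantile scaling, no variance trend together with no robust prior, a replicate block, each library left out and a fold change of 1.5. Positions and 50-base words shared between transcripts came from GENCODE release 29 (GRCh38), in which 169 of the 170 members were found. Promoters came from RefSeq (GRCh38.p14), with windows for 125 members, 31 of them tested. Python 3.11.15 with NumPy 2.4.6, pandas 2.3.3 and matplotlib 3.10.9 was used for the other steps. Some genes of the marker and pathway lists are counted but not reported here by name.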

Additional observations from a re-analysis of the deposited data

How the results depend on the processing

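Of the 18 called members, 14 passed the test in every alternative in which they were tested, and all 18 kept their direction. The exceptions were TNFRSF1A (adjusted p = 0.0558 with no variance trend or robust prior), TNFRSF11B, TNFRSF19 and CXCL3. TNFRSF11B and CXCL3 also missed the threshold with no filter (0.0681 and 0.0994) and with no variance trend or robust prior (0.0533 and 0.0668). With no filter 106 members were tested, and 13 were lower and 5 higher. The lower ones then included members not called in the main fit, which are not named here. With a filter at a mean of 5 FPKM, 2 members were higher and 0 met the fold change of 2 in limma, since CCL2, IL1B and 3 of the higher members were then not tested, and 11 were lower at an adjusted p under 0.05. With a pseudocount of 1, 0 members met that limit. Leaving out a library left 1 to 2 members meeting it (1 without shYB1 replicate 2, where IL1B was at −0.773 on the log2 scale, and 1 without shYB1 replicate 3, where CCL2 was at −0.932), 12 to 14 lower and 4 to 6 higher, and a median log2 fold change of −0.116 to −0.070. That median was 0.003 with no filter, −0.123 with the filter at 5 FPKM, −0.134 with median-of-ratios and −0.121 with quantile scaling. Small uncalled changes turned direction with median-of-ratios and quantile scaling in IL4R (−0.041 and −0.046) and CCL28 (−0.043 and −0.049), and with median-of-ratios scaling in IL1R2 (−0.03) and IL1RAP (−0.05). They turned when a library was left out in TNFRSF10B (−0.027 to 0.029), IL32 (−0.189 to 0.007), IL17RC (−0.073 to 0.067), TNFSF13 (−0.111 to 0.075), IL4R (−0.058 to 0.062), CCL28 (−0.052 to 0.073), IL1R2 (−0.03 to 0.07), IL1RAP (−0.04 to 0.06) and IL18R1 (−0.19 to 0.11). Where no cause is given, it was not tested. With the replicate number as a block, 15 members were lower and 5 higher, with YBX1 at −1.14 on the log2 scale. The deviations of libraries with the same number correlated at −0.169, −0.0590 and −0.00824 across genes, so the numbers were not taken to pair the libraries.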
